A study of Saccharomyces cerevisiae S288C with 18 samples.

Results

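Upf1, the product of NAM7, was purified through a TAP tag from budding yeast in 3 replicates and the RNA that came with it was sequenced, beside 3 mock purifications from the parent strain, called the control purification here, which holds no tagged protein. These 6 libraries were chosen by the bait given in their labels, out of 18 libraries in the series. The Upf1-TAP strain is BY4741 with NAM7 fused to the tag (nam7(upf1)-TAP::HIS3MX6), and the control strain is BY4741 itself. Both carry the MATa ura3Δ0 his3Δ1 leu2Δ0 met15Δ0 background and were grown to exponential phase in rich medium (YPD). The tag combines a calmodulin binding peptide, a TEV protease site and Protein A, and lysates of both strains were put over the same IgG-coated magnetic beads. A mock purification shows which RNAs stick to the beads, to IgG or to the tube, so the comparison asks which RNAs were collected through Upf1-TAP beyond that background. The tagged protein is the sole copy of Upf1 in its strain, each group is 1 strain, and the replicates are independent cultures and purifications. The amount of Upf1 or of RNA collected per cell was not measured, and read counts are shares of a library, so more of some RNAs and less of the others cannot be told apart.

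Upf1 is an RNA helicase at the centre of nonsense-mediated mRNA decay (NMD), the pathway that removes RNAs on which ribosomes terminate too early. With Upf2 (NMD2) and Upf3 it acts at terminating ribosomes, after which the RNA is decapped and digested by the exonuclease Xrn1. Known substrates in yeast include unspliced pre-mRNAs that reach the cytoplasm, mRNAs with upstream open reading frames or frameshift signals, transcripts of pseudogenes, and many of the unannotated RNAs that are transcribed across the genome and translated over short frames.

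The 3 Upf1-TAP libraries held 9386615, 13183470 and 7822345 counted reads, against 4112276, 5857931 and 5738106 in the control purification. At least 1 read was found for 15797 to 16950 features in Upf1-TAP and for 13986 to 14007 in the control purification, a feature being an open reading frame (ORF) or exon, an untranslated region (UTR), an intron or a non-coding RNA. The 10 most abundant features took 5.21% to 17.7% of the reads in Upf1-TAP and 17.4% to 25.9% in the control purification. Ribosomal RNA, without the short frame YLR154W-E inside it, took 0.00743%, 0.0183% and 7.29% of the reads in Upf1-TAP replicates 1, 2 and 3, against 0.0538%, 9.25% and 10.8% in control purification replicates 1, 2 and 3. With that frame counted, the shares were 0.131%, 0.328% and 7.31% in Upf1-TAP, against 3.50%, 9.26% and 10.8% in the control purification. Control purification replicate 1 therefore counts as low in ribosomal RNA, here and wherever libraries are split at 1%, only because the frame is left out. Split this way, libraries high and low in ribosomal RNA occur in both groups, so medians are also given within them where they matter. These set Upf1-TAP replicates 1 and 2 against control purification replicate 1, and Upf1-TAP replicate 3 against control purification replicates 2 and 3.

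Of 12582 features tested with edgeR's quasi-likelihood test, 2488 were higher in Upf1-TAP (19.8%) and 1751 were lower (13.9%) at an adjusted p under 0.05, with a median log2 fold change of 0.07. These values rest on TMM scaling, which assumes that most features do not differ. The TMM factors were 2.21, 1.92 and 1.63 for Upf1-TAP and 1.22, 0.989 and 0.956 for the control purification. With libraries scaled to their total counts instead, the median log2 fold change moved up by 0.87, and the split became 3891 higher (30.9%) and 69 lower (0.548%). Since total-count scaling moves fold changes up, it kept all 2488 higher calls and is no check on the increases below. Most lower calls were not kept with total-count scaling, so they hold relative to the typical RNA of the library. A lost call does not by itself mean that the fold change is no longer below 0, as the values with total-count scaling below show. Levels are given as CPM, the reads of a feature relative to the TMM-scaled size of its library. CPM is not divided by length, so it compares libraries and not genes. A log2 fold change is Upf1-TAP over the control purification, with its standard error (SE) from the fit.

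Unspliced pre-mRNA shows how such a substrate looks in sequence. For each intron tested below with a whole start codon before it, the reading frame was continued from the annotated start codon through the splice site, in the RefSeq genome of build R64. The ribosomal protein genes RPL19B, RPL43A and RPL43B were tested below but are left out here. A stop codon in that frame lay inside the intron for 80 of 83 genes. Among them were 49 of 49 ribosomal protein genes, in which 3 to 114 codons (median 16) came before it. It also lay there in 31 of 34 other genes, after 6 to 434 codons (median 33), so such a stop does not set ribosomal protein genes apart. The exceptions were GIM4, PTC7 and YOP1. The stretches that end at this stop are shown for 5 ribosomal protein genes whose introns are followed below, the 4 largest increases among introns with at least 5 CPM and RPS9B, one of the most abundant, because they show how soon a ribosome on the unspliced RNA would meet a stop. All are on the forward strand, the capitals mark the stop codon, and the lines for RPL22A, RPL30 and RPS9B begin at the start codon.
RPL28, chrVII:310994-311023: aagcacagaggtcacgtctcaggtatgTAG
RPS13, chrIV:579470-579499: cacagtgccgtatgtttattaacaccaTAG
RPL22A, chrXII:263194-263211: atggccccaaacgtaTGA
RPL30, chrVII:439091-439108: atggtcagtataacaTGA
RPS9B, chrII:604508-604525: atgccaagtacgtatTAG
In RPL28 the first 22 of these bases are exon and 18 codons come before the stop, against 13 codons in RPS13 and 5 codons in each of RPL22A, RPL30 and RPS9B.

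The intron of RPL28, which encodes a protein of the large ribosomal subunit and whose unspliced form is a textbook NMD substrate, was the intron with the largest increase. It stood at 858, 799 and 935 CPM in Upf1-TAP, against 87.8, 62.0 and 53.4 CPM in the control purification. Every Upf1-TAP library was far above every control library, a log2 fold change of 3.67 (SE 0.42, edgeR adjusted p = 3.78e-05). The exons of the same gene stood at 1110.4, 1435 and 1546 CPM in Upf1-TAP, against 1111, 1651 and 1562 CPM in the control purification. These groups overlapped, with a log2 fold change of −0.08 (SE 0.57, edgeR adjusted p = 0.930), so the intron and the exons of RPL28 differed in Upf1-TAP.

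**Figure D1:**
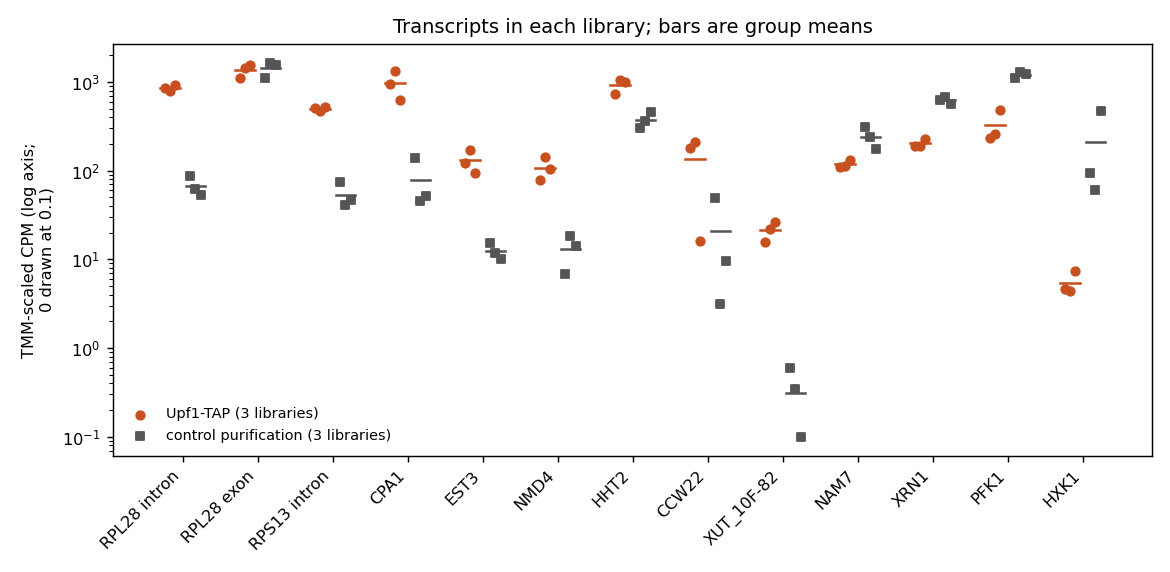
TMM-scaled CPM on a log axis for 13 transcripts in each library, Upf1-TAP (circles) left of the control purification (squares), with group means as bars. The introns of RPL28 and RPS13, CPA1, EST3, NMD4, HHT2 and XUT_10F-82 separate upwards in Upf1-TAP, NAM7, XRN1, PFK1 and HXK1 separate downwards, and RPL28 exon and CCW22 overlap.

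The same held for introns of other ribosomal protein genes. The intron of RPS13, a small subunit protein gene, stood at 507, 467 and 525 CPM in Upf1-TAP, against 74.2, 40.6 and 46.9 CPM in the control purification, a log2 fold change of 3.21 (SE 0.52, edgeR adjusted p = 0.000342). The intron of RPL22A followed with 118, 97.4 and 58.4 CPM in Upf1-TAP, against 11.4, 10.5 and 6.75 CPM in the control purification (log2 fold change 3.26). RPL30 and RPS9B, both ribosomal protein genes too, had log2 fold changes of 2.98 and 2.60. Of 90 listed ribosomal protein introns 52 could be tested, and 32 were higher and 0 lower, beside 19.8% higher among all features, with a median log2 fold change of 1.47. In 40 of the 52 the 3 Upf1-TAP libraries lay above the 3 control libraries, beside 26.2% of all features, and 23 were called without control purification replicate 3, beside 13.2% of all features. The median was 1.49 within the libraries low in ribosomal RNA and 1.16 within those high in it. The 34 tested introns of other genes had 5 higher and 2 lower and a median of −0.35, which became 0.49 with total-count scaling. The lower ones, in ECM33 (cell wall biogenesis, log2 fold change −1.55) and GLC7 (a protein phosphatase, log2 fold change −1.36), were not called with total-count scaling, and both were lost without Upf1-TAP replicate 1 or 2, GLC7 also without control purification replicate 2 or 3 (edgeR).

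The share of introns within each gene, which no scaling of libraries can change, gave the same picture. It rises with more intron reads or with fewer exon reads and does not tell these apart. With TMM scaling, the 137 tested ORFs or exons of ribosomal protein genes had a median log2 fold change of −1.14. The median ribosomal protein gene had 15.2, 9.70 and 16.0 intron reads per 100 exon reads in Upf1-TAP, against 2.40, 2.19 and 2.28 in the control purification. For the other genes the medians were 4.22, 3.20 and 2.77 in Upf1-TAP, against 3.33, 2.16 and 3.04 in the control purification, and these overlapped. In limma on the log2 ratio, 43 of 86 genes were higher in Upf1-TAP (50%) and 1 was lower (1.16%), 51.2% in either direction. Of the 43, 41 were among the 52 ribosomal protein genes, whose median difference was 2.57, and 2 were among the 34 other genes, whose median difference was 0.09. In 49 of the 52 the 3 Upf1-TAP libraries lay above the 3 control libraries, beside 55 of all 86 genes (64%). In 3 of the 86 they lay below. RPL30 had the largest difference, with 1061, 915 and 659 intron reads in Upf1-TAP, against 38, 23 and 33 in the control purification, a log2 ratio higher by 4.03 (SE 0.65, limma adjusted p = 0.000118). RPP1B (4.01), RPS9B (3.97) and RPS13 (3.96) came next. The gene called lower was TEF4, a translation elongation factor subunit, whose groups overlapped. RPS14B is counted among the higher ones although its exon feature holds 0 reads in all 6 libraries, so its ratio is set by the pseudocount.

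**Figure D2:**
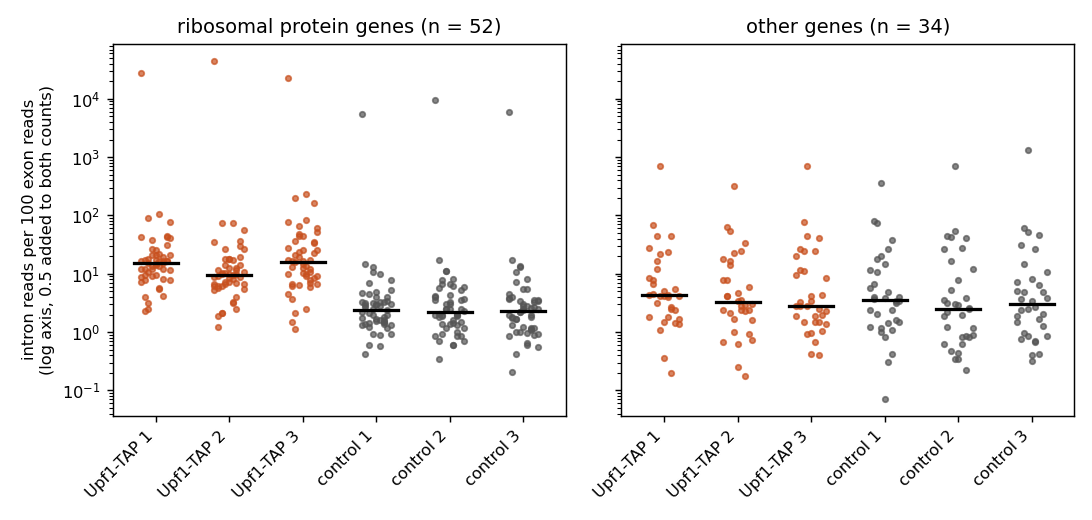
Intron reads per 100 exon reads on a log axis, 1 point per gene and library, for 52 ribosomal protein genes (left) and 34 other genes (right), Upf1-TAP left of the control purification in each panel. Black bars are medians with 0.5 added to both counts. The ribosomal protein points sit higher in all 3 Upf1-TAP libraries, and the other genes do not shift. The isolated points at the top of the left panel are RPS14B.

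Introns were measured only for 86 of 272 annotated ones, and nearly all of these lie in genes of the forward strand. Of 135 introns in genes of the reverse strand, 133 have no read in any of the 18 libraries, while 133 of 137 in forward genes have at least 1. All 812 reverse XUTs, a class described below, are also at 0, against 696 of 846 forward XUTs with a read. Such zeros in the deposited counts say nothing about these RNAs.

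mRNAs known as NMD substrates formed the list with the largest median. All 18 listed could be tested, and 14 were higher in Upf1-TAP and 0 lower, beside 19.8% and 13.9% among all features. With a term for libraries above 1% ribosomal RNA, an alternative added after seeing the data, 14 were higher and 0 lower, beside 25.8% higher and 22.2% lower among all features. Their median log2 fold change was 1.78, and it was 1.49 and 1.57 within the libraries low and high in ribosomal RNA. Without control purification replicate 3, 9 of the 18 were still called higher, beside 13.2% of all features.

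CPA1, which encodes the small subunit of the carbamoyl phosphate synthetase of arginine synthesis and carries an upstream reading frame, was the highest of them. It stood at 938, 1336 and 624 CPM in Upf1-TAP, against 138, 45.2 and 51.6 CPM in the control purification. The lowest Upf1-TAP value was several times the highest control value, and the log2 fold change was 3.63 (SE 0.77, edgeR adjusted p = 0.00228).

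EST3, a telomerase subunit, came second. Its full-length protein is made by ribosomes that shift frame before a stop codon, and the site is shown here because a stop codon lies in frame in the middle of the gene. In the R64 annotation 1 base is skipped at this site, 93 codons come before the stop, and the coding sequence is 546 bases long. The stretch is written along the reverse strand, with the stop in capitals.
EST3, chrIX:335928-335957: gattcctcacaccaaatacttagtTGAgtt
EST3 stood at 123, 173 and 95 CPM in Upf1-TAP, against 15.2, 11.9 and 10.0 CPM in the control purification, without overlap. The log2 fold change was 3.40 (SE 0.41, edgeR adjusted p = 4.88e-05).

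The other telomere genes of the list moved the same way. STN1, which encodes a subunit of the complex that caps telomeres, stood at 141, 113 and 151 CPM in Upf1-TAP, against 19.6, 22.3 and 17 CPM in the control purification (log2 fold change 2.78, SE 0.37, edgeR adjusted p = 9.03e-05). TEN1, its partner in that complex, had a log2 fold change of 2.92. EST2, the catalytic subunit of telomerase, and EST1, its regulatory subunit, had log2 fold changes of 2.31 and 2.11. All 5 telomere genes separated the 3 Upf1-TAP libraries from the 3 control libraries, and none was lost when any single library of the 6 was left out.

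Smaller increases were seen for FLR1, a drug exporter (log2 fold change 2.16), COX19 (2.02) and COX23 (1.81), both needed to assemble cytochrome c oxidase, and REV7, a subunit of a translesion DNA polymerase (1.74). ALR1, a magnesium transporter (1.63), PPR1, an activator of pyrimidine synthesis genes (1.36), EBS1, a relative of EST1 (1.09), and CTR2, a vacuolar copper transporter (1.00), were also higher. COX19 passed the test although its groups overlapped. ALR1, PPR1, EBS1, CTR2 and COX19 each lost the call when 1 of at least 2 single libraries was left out, control purification replicate 3 among them for all 5. The members that did not pass were SPT10, a regulator of histone genes (1.00, edgeR adjusted p = 0.131), FRE2, a ferric reductase (0.84, adjusted p = 0.123), CTF13, a kinetochore protein (0.30, adjusted p = 0.561), and MAC1, a copper-sensing activator (−0.19, adjusted p = 0.625). For MAC1 the values were 22.5, 25.2 and 26.0 CPM in Upf1-TAP, against 28.4, 31.9 and 23.7 CPM in the control purification, which overlap.

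**Figure D3:**
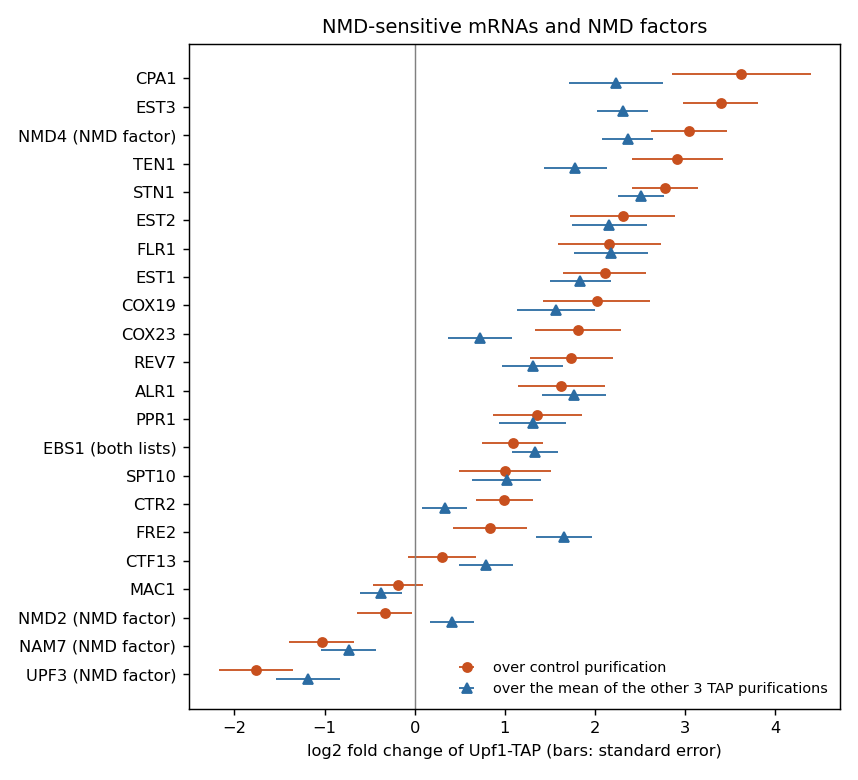
Log2 fold changes of Upf1-TAP with their SE for the 18 NMD-sensitive mRNAs and 5 NMD factors (EBS1 is on both lists), over the control purification (circles) and over the mean of the 3 other TAP purifications (triangles). From CPA1 (3.63) down to EBS1 (1.09) the circles lie to the right of 0, while MAC1, NMD2, NAM7 and UPF3 lie to its left, of which MAC1 (0.66) and NMD2 (0.55) lie to its right with total-count scaling.

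The mRNAs of the NMD factors themselves went in both directions. NMD4, which encodes a protein bound to the Upf1 helicase domain, stood at 78.0, 142 and 104 CPM in Upf1-TAP, against 6.80, 18.3 and 14 CPM in the control purification, a log2 fold change of 3.04 (SE 0.42, edgeR adjusted p = 0.000118). EBS1 was higher, as given above. The bait's own mRNA, NAM7, stood at 109.9, 114 and 132 CPM in Upf1-TAP, against 313, 242 and 174 CPM in the control purification. That is a log2 fold change of −1.03 (SE 0.36, edgeR adjusted p = 0.0343), which became −0.22 (adjusted p = 0.814) with total-count scaling and was lost without Upf1-TAP replicate 1 or 2 or control purification replicate 1 or 2. UPF3 was at 8.45, 12.4 and 10.8 CPM in Upf1-TAP, against 13.8, 48.0 and 45.6 CPM in the control purification (log2 fold change −1.76, and −0.85 with adjusted p = 0.253 under total-count scaling). NMD2 had a log2 fold change of −0.33 and did not pass (edgeR adjusted p = 0.411). The read counts of NAM7 do not report on the amount of its protein on the beads.

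Unannotated non-coding RNAs were the classes with the highest medians, CUTs only with the main filter on low counts. XUTs are RNAs that accumulate without Xrn1, SUTs are stable unannotated transcripts, and CUTs are cryptic transcripts that the nuclear exosome removes. Of 522 tested XUTs, 324 were higher in Upf1-TAP and 2 lower, with a median log2 fold change of 2.15. Of 167 SUTs, 88 were higher and 0 lower (median 1.72), and of 274 CUTs, 81 were higher and 5 lower (median 1.28), beside 19.8% higher and 13.9% lower among all features. A feature could enter the test on its reads in Upf1-TAP alone, so RNAs at low counts were tested partly because they are high there. With at least 10 reads in each of the 6 libraries compared, 48 of 69 XUTs were higher and 0 lower (median 2.35), 36 of 41 SUTs were higher and 0 lower (median 2.38), and 6 of 17 CUTs were higher and 2 lower (median −0.19), beside 20.8% higher and 14.5% lower among all features. The direction of the CUT median therefore depends on this filter. All 3 medians with the main filter lie above the 0.07 of all features, and they were 1.71, 1.48 and 1.01 within the libraries low in ribosomal RNA and 1.46, 1.39 and 0.77 within those high in it. Many of these RNAs overlap genes or one another, and the sources used here do not say how reads on overlapping features were shared out.

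XUT_10F-82 had the largest increase among those with at least 5 CPM, at 15.7, 21.9 and 26.8 CPM in Upf1-TAP, against 0.600, 0.345 and 0 CPM in the control purification. Its control values rest on 3, 2 and 0 reads, against 326, 554 and 341 reads in Upf1-TAP, so its log2 fold change of 6.06 (SE 0.76, edgeR adjusted p = 6.04e-05) is imprecise. CUT046 (5.14), XUT_13F-321 (5.00) and XUT_15F-5 (4.75) followed, each on few control reads. XUT_13F-321 stood at 30.8, 33.4 and 14.9 CPM in Upf1-TAP, against 1.20, 0.173 and 1.09 CPM in the control purification. In the other direction CUT221 had 7.77, 9.48 and 9.96 CPM in Upf1-TAP, against 18, 36.4 and 42.3 CPM in the control purification (log2 fold change −1.83), and CUT146 had a log2 fold change of −1.55. Neither was called with total-count scaling, and both were lost without Upf1-TAP replicate 1 or 2 or control purification replicate 2 or 3 (edgeR), CUT146 also without Upf1-TAP replicate 3.

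**Figure D4:**
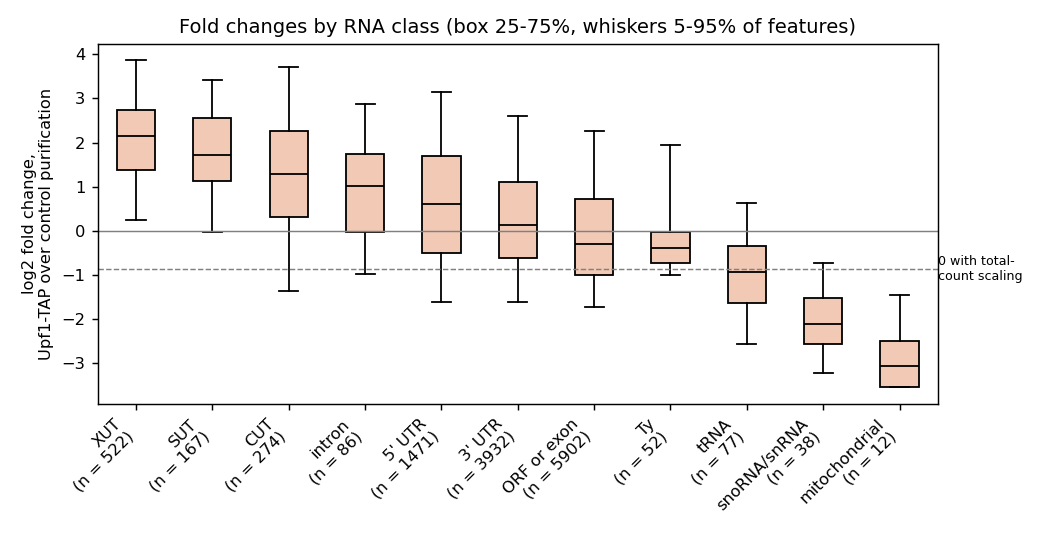
Log2 fold changes of Upf1-TAP over the control purification by RNA class, as boxes from the lower to the upper quartile with whiskers to the 5th and 95th percentiles and the number tested. The medians fall in the order XUT (2.15), SUT (1.72), CUT (1.28), intron (1.01), 5′ UTR (0.62), 3′ UTR (0.14) and ORF or exon (−0.29, or 0.56 with total-count scaling; the CUT median is −0.19 where 10 reads are asked of each library), and end with mitochondrial RNAs (−3.06). The dashed line is where 0 would lie with total-count scaling. Mitochondrial RNAs here exclude the ribosomal RNAs and tRNAs of that genome.

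As shares of all reads, which need no model, XUTs took 0.970%, 0.865% and 0.459% in Upf1-TAP, against 0.220%, 0.113% and 0.115% in the control purification. SUTs took 0.456%, 0.419% and 0.271% in Upf1-TAP, against 0.0835%, 0.0462% and 0.0451% in the control purification. Introns took 0.846%, 0.693% and 0.649% in Upf1-TAP, against 0.165%, 0.120% and 0.123% in the control purification. In these 3 classes and in CUTs and both kinds of UTR the groups did not overlap, which is the smallest p that an exact two-sided permutation test of 3 against 3 can give (p = 0.1), so these shares cannot pass 0.05.

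Among ORFs and exons, 932 of 5902 were higher in Upf1-TAP (15.8%) and 1388 lower (23.5%), with a median log2 fold change of −0.29 that became 0.56 with total-count scaling. The largest increase among those with at least 20 CPM was LSO1, a small gene induced by iron shortage. It stood at 41.7, 38.2 and 27.5 CPM in Upf1-TAP, against 0.600, 0.345 and 0 CPM in the control purification, where it had 3, 2 and 0 reads, a log2 fold change of 6.80 (SE 0.90, edgeR adjusted p = 9.62e-05). YOL014W, an uncharacterised frame, was the most abundant of the 10 largest increases, at 402, 831 and 1016 CPM in Upf1-TAP, against 33.8, 45.9 and 7.11 CPM in the control purification (log2 fold change 4.69, SE 0.67, edgeR adjusted p = 0.000149). ISC10, a gene needed for sporulation, stood at 269, 343 and 218 CPM in Upf1-TAP, against 20.0, 18.5 and 15.3 CPM in the control purification, a log2 fold change of 3.95. HTL1, a subunit of the RSC chromatin remodeller, and its neighbour PET18 had log2 fold changes of 3.90 and 3.92. The rest of the 10, with log2 fold changes of 3.93 to 5.44, were YNL162W-A, YLL053C, YGR073C, YHR214W-A and YOR013W. YHR214W-A was lost without control purification replicate 2 or 3, and the other 9 kept their call whichever of the 6 libraries was left out.

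Of 52 listed genes of meiosis and sporulation 43 were tested, and 22 were higher in Upf1-TAP and 0 lower, beside 19.8% higher and 13.9% lower among all features, with a median log2 fold change of 1.43. With at least 10 reads in each of the 6 libraries, 16 could be tested and 13 were higher, beside 20.8% of all features. ZIP1, a protein of the synaptonemal complex, stood at 79.6, 63.6 and 36.4 CPM in Upf1-TAP, against 19.8, 16.6 and 11.5 CPM in the control purification (log2 fold change 1.91, SE 0.46, edgeR adjusted p = 0.00479). REC8, the cohesin subunit of meiosis, had the largest change of the list, 10.2, 11.7 and 11.5 CPM in Upf1-TAP, against 1.4, 1.38 and 0.729 CPM in the control purification (log2 fold change 3.24). It was picked after its value was seen. IME2, the kinase that drives meiosis, and SPS4 were also higher (1.43 and 2.15), but both were lost without Upf1-TAP replicate 1 or control purification replicate 3, IME2 also without Upf1-TAP replicate 2 or control purification replicate 2. Without control purification replicate 3, 12 of the 43 were called, beside 13.2% of all features. RED1 (1.52, edgeR adjusted p = 0.141) did not pass, and its values overlapped.

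The ORFs that were higher also differed in what they are. Their median coding length was 897 bases, against 1227 for all tested ORFs and 1713 for those that were lower. Within 30 kb of a chromosome end lay 15.5% of the higher ORFs, against 6.12% of all tested and 3.17% of the lower. In the input, the total RNA of the extracts, the higher ORFs had a median of 9.27 CPM, against 28.6 for all and 58.8 for the lower. CPM is not divided by length, and the lower ORFs are longer, so the part of length in this difference was not tested. Frames that RefSeq does not list made up 8.37% of the higher ORFs, against 4.27% of all and 0.0720% of the lower. As with XUTs, ORFs at low counts could enter the test on their reads in Upf1-TAP alone. These contrasts may therefore depend partly on the filter. These are descriptions of the called groups, with no test.

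Lower values were also found in lists of growth genes, which hold a small part of the 1388 lower ORFs and exons. Of 53 ribosome biogenesis genes 38 were lower in Upf1-TAP and 1 was higher (IMP3, picked after its value was seen), of 19 genes of glycolysis and fermentation 13 were lower and 0 higher, and of 137 tested ORFs or exons of ribosomal protein genes 47 were lower and 2 higher, beside 13.9% lower among all features. Among all ORFs and exons 23.5% were lower. The median log2 fold changes of these lists were −1.42, −1.57 and −1.14. With total-count scaling these medians were −0.55, −0.74 and −0.25 and the numbers called lower 1, 1 and 0, beside 0.548% of all features. Without control purification replicate 3, 31, 5 and 19 were called lower with TMM scaling, beside 9.24% of all features. The medians of these lists were below that of all features (0.07 with TMM and 0.93 with total counts), a position that a change of scaling hardly alters. They were also below that of ORFs and exons (−0.29 with TMM and 0.56 with total counts). Few members were called lower in share of reads.

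PDC1, the pyruvate decarboxylase of alcoholic fermentation, stood at 1729, 2750.2 and 2420.4 CPM in Upf1-TAP, against 10087, 8668 and 10049 CPM in the control purification. The groups did not overlap and the log2 fold change was −2.06 (SE 0.63, edgeR adjusted p = 0.0182). PFK1, a subunit of phosphofructokinase, stood at 236, 259 and 481 CPM in Upf1-TAP, against 1098, 1290.5 and 1229 CPM in the control purification (log2 fold change −1.89, SE 0.37, edgeR adjusted p = 0.00127). Both lost the call with total-count scaling (−1.22, adjusted p = 0.232, and −1.07, adjusted p = 0.114), and PDC1 also without Upf1-TAP replicate 1. RRP5, a factor of ribosomal RNA processing, stood at 207, 223 and 342 CPM in Upf1-TAP, against 786, 1229 and 864 CPM in the control purification, a log2 fold change of −1.90 (−1.05 and edgeR adjusted p = 0.0934 with total-count scaling). RPS31, a small subunit protein made as a fusion with ubiquitin, had a log2 fold change of −2.27, and it was lost with total-count scaling (−1.45, adjusted p = 0.0688) and without Upf1-TAP replicate 1 or 2. The 2 higher ribosomal protein ORFs were RPL22B, the paralog of RPL22A, and RPS27A, both picked after their values were seen. RPS27A had a log2 fold change of 1.70 (edgeR adjusted p = 0.0498) and its groups overlapped. RPL22B stood at 607, 677 and 226 CPM in Upf1-TAP, against 48.0, 26.4 and 27.4 CPM in the control purification (log2 fold change 3.89, SE 0.49, edgeR adjusted p = 6.25e-05).

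**Figure D5:**
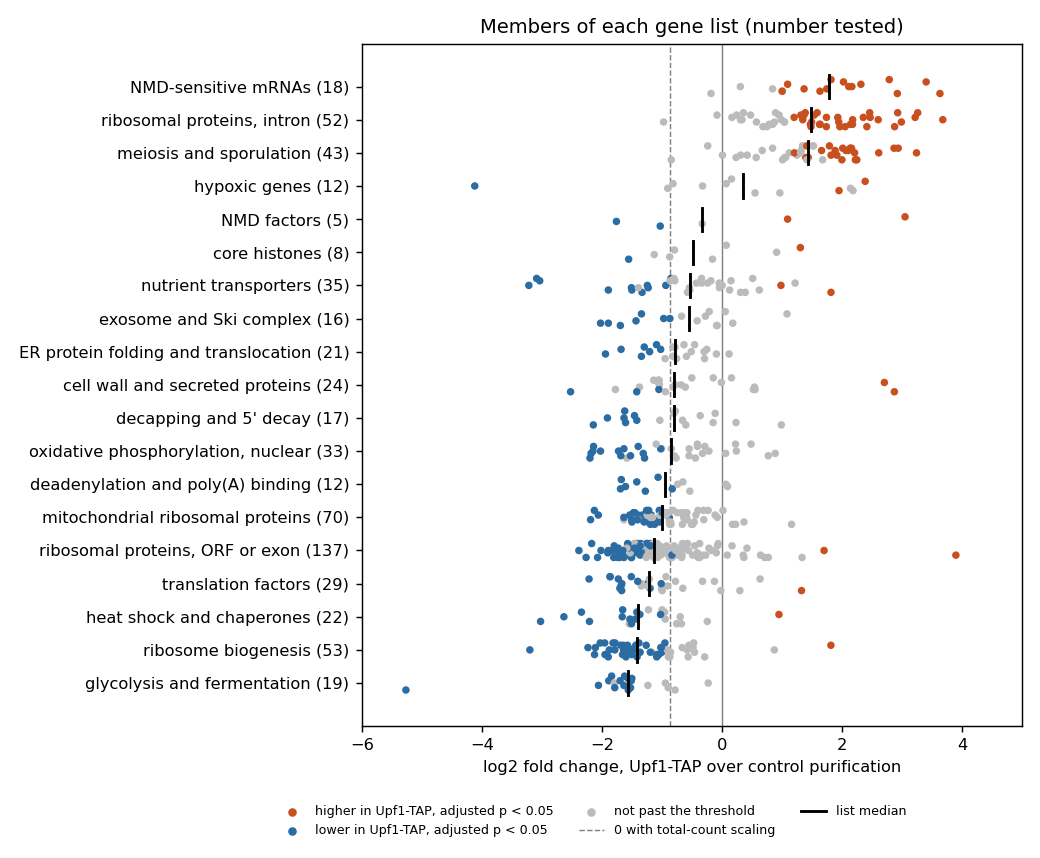
Log2 fold changes of the tested members of each gene list, 1 point per feature, with the list median as a black bar and the number tested in brackets. NMD-sensitive mRNAs, ribosomal protein introns and meiosis genes lie to the right (medians 1.78, 1.47 and 1.43), and glycolysis, ribosome biogenesis and ribosomal protein ORFs to the left (−1.57, −1.42 and −1.14). The dashed line is where 0 would lie with total-count scaling, and most blue points lie near or to its left.

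The counts of the other housekeeping lists stand beside 13.9% lower and 19.8% higher among all features. Their members are ORFs or exons, a class with 23.5% lower and 15.8% higher. Heat shock proteins and chaperones had 12 of 22 lower and 1 higher (median −1.40), translation factors 13 of 29 lower and 1 higher (−1.21), and mitochondrial ribosomal proteins 29 of 70 lower and 0 higher (−1.01). With total-count scaling these medians were −0.58, −0.35 and −0.17, and 3, 0 and 1 members were called lower, beside 0.548% of all features. SSB1, a ribosome-associated chaperone, stood at 896, 991 and 1072 CPM in Upf1-TAP, against 3206, 3068 and 3066 CPM in the control purification (log2 fold change −1.66), and lost the call without Upf1-TAP replicate 1 or 2. TEF1 and TEF2, near-identical genes for the elongation factor that brings tRNAs to the ribosome, share reads and had log2 fold changes of −1.68 and −1.71, lost when any 1 library other than Upf1-TAP replicate 3 was left out. Nuclear genes of oxidative phosphorylation (13 of 33 lower, median −0.85), genes of protein folding in the endoplasmic reticulum (7 of 21, −0.79), nutrient transporters (11 of 35 lower and 2 higher, −0.54) and cell wall proteins (3 of 24 lower and 2 higher, −0.80) had smaller medians. The medians of these 4 lists were 0.03, 0.02, 0.36 and 0.01 with total-count scaling, so their sign does not hold under both. They too lie below the medians of all features, 0.07 with TMM and 0.93 with total counts. The medians of ORFs and exons were −0.29 and 0.56, and these 4 lie below them as well. The share of cell wall proteins called lower (12.5%) was near that of all features and below that of ORFs and exons.

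mRNAs of the wider RNA decay machinery were on the low side with TMM scaling. With total-count scaling the list medians came to 0.06 (decapping and 5′ decay), −0.09 (deadenylation) and 0.33 (exosome and Ski complex). XRN1 stood at 191, 192 and 228 CPM in Upf1-TAP, against 624, 682 and 560.1 CPM in the control purification, without overlap (log2 fold change −1.61, SE 0.30, edgeR adjusted p = 0.00100). With total-count scaling it was −0.76 and did not pass (adjusted p = 0.287). Of 17 decapping and 5′ decay genes 7 were lower and 0 higher (median −0.81), of 12 deadenylation and poly(A) binding genes 7 and 0 (−0.95), and of 16 exosome and Ski complex genes 7 and 0 (−0.55), beside 13.9% lower among all features. Among ORFs and exons 23.5% were lower, with a median of −0.29. DCP2, the decapping enzyme, stood at 124, 192 and 166 CPM in Upf1-TAP, against 134, 149.9 and 127 CPM in the control purification, which overlap (log2 fold change 0.23, edgeR adjusted p = 0.735). MTR4, the nuclear helicase that feeds the exosome, was the member of these lists that stayed lower with total-count scaling (−2.03 with TMM, −1.18 with total counts, edgeR adjusted p = 0.0451).

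The core histones did not move together. HHT2, a histone H3 gene, stood at 738, 1041 and 997 CPM in Upf1-TAP, against 305, 359 and 462 CPM in the control purification. It was higher, with a log2 fold change of 1.30 (SE 0.38, edgeR adjusted p = 0.0138), and lost the call without control purification replicate 1 or 2. HTA1, a histone H2A gene, stood at 71.9, 96.4 and 50.5 CPM in Upf1-TAP, against 170.2, 226 and 249 CPM in the control purification (log2 fold change −1.56, SE 0.39, edgeR adjusted p = 0.0063; with total-count scaling −0.65, adjusted p = 0.409). The other 6 did not pass, with log2 fold changes of −1.13 (HTB1) to 0.91 (HTB2). HHT1, the other histone H3 gene, had a log2 fold change of −0.80 (edgeR adjusted p = 0.239).

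CCW22, a cell wall gene that RefSeq annotates as a pseudogene, passed the test with a log2 fold change of 2.7 (SE 1.01, edgeR adjusted p = 0.0460) but rested on few libraries. It stood at 179.9, 208 and 16.1 CPM in Upf1-TAP, against 49.6, 3.11 and 9.66 CPM in the control purification. Upf1-TAP replicate 3 was below control purification replicate 1, and the call was lost without Upf1-TAP replicate 1 or 2 or control purification replicate 2 or 3. AAC3, the ADP/ATP carrier that yeast uses without oxygen, was steadier, at 47.8, 51.7 and 64.2 CPM in Upf1-TAP, against 12.0, 15.7 and 14.8 CPM in the control purification (log2 fold change 1.94, SE 0.42, edgeR adjusted p = 0.00256). Of 12 hypoxic genes 2 were higher and 1 lower, near the shares among all features (19.8% and 13.9%). Among ORFs and exons the shares were 15.8% and 23.5%.

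Control purification replicate 3 stood apart in the 10 largest decreases with at least 20 CPM. HXK1, a hexokinase, stood at 4.64, 4.42 and 7.37 CPM in Upf1-TAP, against 95, 60.8 and 476 CPM in the control purification. GPH1, glycogen phosphorylase, stood at 6.76, 6.76 and 12.4 CPM in Upf1-TAP, against 101, 76.7 and 484 CPM in the control purification. It was the highest library for all 10, also for the glycogen enzymes GLC3 and GSY1, the hexose transporters HXT4, HXT6 and HXT7, and TMA10, EGO4 and STF2. The log2 fold changes of HXK1, GPH1 and GLC3 were −5.27, −4.68 and −4.16, and −3.83, −3.36 and −3.16 without control purification replicate 3, all 3 still called (edgeR). TMA10 changed to −1.63, HXT4 to −1.67, EGO4 to −1.88 and STF2 to −1.68, and these 4 were then no longer called. HXT6 and HXT7 are near-identical and their reads cannot be told apart.

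Untranslated regions took a larger share of the reads in Upf1-TAP. The 3′ UTRs held 8.80%, 9.14% and 9.21% of the reads in Upf1-TAP, against 3.23%, 3.33% and 3.42% in the control purification, and the 5′ UTRs 1.57%, 1.28% and 1.02% in Upf1-TAP, against 0.568%, 0.450% and 0.439% in the control purification. Of 3932 tested 3′ UTRs, 690 were higher and 237 lower (median log2 fold change 0.14), both below the shares among all features (19.8% and 13.9%), and of 1471 tested 5′ UTRs, 330 were higher and 93 lower (0.62). UTRs at low counts, like XUTs, could enter the test on their reads in Upf1-TAP alone. These counts and medians may therefore depend partly on the filter, and none with a filter on every library compared are given. Relative to the ORF of the same gene the median change was small. The 3′ UTR to ORF ratio was higher in 2972 of 3904 genes. In 945 genes (24.2%) the 3 Upf1-TAP libraries lay above the 3 control libraries, and in 70 they lay below. The median log2 ratio of 3′ UTR to ORF was higher by 0.38 over 3904 genes, of which 17 passed in limma (0.435%) and 0 were lower (407 and 11 at an unadjusted p under 0.05), and leaving out any 1 of the 6 libraries left 0 to 7.

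TAT1, an amino acid permease, had 1237, 1550 and 729 reads in its 3′ UTR in Upf1-TAP, against 65, 37 and 23 in the control purification, while its ORF had 3743, 3179 and 2884 reads in Upf1-TAP, against 1139, 849 and 587 in the control purification. Its log2 ratio was higher by 2.88 (SE 0.46, limma adjusted p = 0.0175). CHA1, which degrades serine and threonine, was higher by 3.30, GAB1, which attaches lipid anchors to proteins, by 3.34, and VPS41, a vacuolar tethering factor, by 3.92. VPS41 and GAB1 were not called with a pseudocount of 5, and CHA1 and TAT1 were (limma).

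For 5′ UTRs, 88 of 1460 genes had a higher ratio to their ORF in Upf1-TAP (6.03%) and 5 a lower one (0.342%), 6.37% in either direction, with a median difference of 0.20. As above, 5′ UTRs could enter on their reads in Upf1-TAP alone, so these counts may depend partly on the filter. The largest increases rest on control values near 0. The 5′ UTR of TPA1, which acts in translation termination, had 28, 43 and 59 reads in Upf1-TAP, against 0, 1 and 0 in the control purification. That of FPR3, a nucleolar prolyl isomerase, had 74, 60 and 38 reads in Upf1-TAP, against 0, 2 and 1 in the control purification, and that of RPL12B, a ribosomal protein gene, had 52, 76 and 10 reads in Upf1-TAP, against 0, 0 and 0 in the control purification. With a pseudocount of 5, 11 genes passed in place of 88, so no fold change is given for these. The opposite was seen for ORC5, a subunit of the origin recognition complex, with 23, 31 and 9 reads in its 5′ UTR in Upf1-TAP, against 13, 10 and 7 in the control purification, while its ORF had 2230, 2587 and 1014 reads in Upf1-TAP, against 194, 201 and 145 in the control purification (log2 ratio lower, −2.43, limma adjusted p = 0.0408), which did not pass with a pseudocount of 5 (adjusted p = 0.130). HEM4 (−3.88), of heme synthesis, YDR042C (−3.23) and USV1 (−2.95) were also lower.

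Mitochondrially encoded RNAs, without ribosomal RNAs and tRNAs, took 0.0125%, 0.0178% and 0.0547% of the reads in Upf1-TAP, against 0.106%, 0.177% and 0.184% in the control purification. Of 12 tested 7 were lower and 0 higher, beside 13.9% lower among all features, with a median log2 fold change of −3.06 that was −2.27 with total-count scaling. The mitochondrial ribosomal RNAs took 0.00207%, 0.00253% and 0.384% in Upf1-TAP, against 0.00931%, 3.24% and 3.66% in the control purification, shares that overlap. Small nucleolar and spliceosomal RNAs had 13 of 38 lower and 0 higher (median −2.11), beside the same 13.9%, and took 2.41%, 5.55% and 9.58% of the reads in Upf1-TAP, against 6.20%, 16.8% and 14.5% in the control purification, shares that overlap (exact permutation p = 0.2). The median of the snoRNA and snRNA class was −0.69 within the libraries low in ribosomal RNA and −1.77 within those high in it. SCR1, the RNA of the signal recognition particle, stood at 1027, 1311 and 25529 CPM in Upf1-TAP, against 18596, 21052 and 26633 CPM in the control purification. Upf1-TAP replicate 3, the one of its group with 7.29% ribosomal RNA, was at the control level, and the difference did not pass (log2 fold change −1.25, edgeR adjusted p = 0.437). The part of ribosomal RNA depletion in these values was not tested. Transposon RNAs (Ty) had 3 of 52 higher and 1 lower, both below the shares among all features (19.8% and 13.9%).

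Upf1-TAP was also set against the mean of Pab1-TAP, Rpl16a-TAP and Lsm1-TAP in the same fit, 3 libraries each. In this comparison 2920 features were higher (23.2%) and 1785 lower (14.2%). The Upf1-TAP libraries are shared by both comparisons, so these counts are no independent check of those above. In the same fit Lsm1-TAP over the control purification had 0 features called (edgeR, 832 higher and 252 lower at an unadjusted p under 0.05), and in Rpl16a-TAP replicate 3 ribosomal RNA took 67.8% of the reads. With Lsm1-TAP left out of the mean, an alternative added after seeing the data, 3031 features were higher and 2027 lower, and without Rpl16a-TAP replicate 3, also added then, 2964 and 1932. By list, with all 3, 15 of 18 NMD-sensitive mRNAs, 46 of 52 ribosomal protein introns, 20 of 43 meiosis genes, 355 of 522 XUTs and 90 of 167 SUTs were higher than the other TAP purifications, beside 23.2% of all features. Here too, RNAs at low counts, many XUTs and SUTs among them, could enter the test on their reads in Upf1-TAP alone. Their shares may therefore depend partly on the filter, and no list counts with a filter on every library compared are given for this comparison.

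For the RPL28 intron the log2 fold change over the other TAP purifications was 3.24 (edgeR adjusted p = 1.49e-06), for CPA1 2.24 (adjusted p = 0.00297), for EST3 2.31 (adjusted p = 1.55e-05), for STN1 2.51 (adjusted p = 3.98e-06) and for NMD4 2.36 (adjusted p = 1.52e-05). FRE2, which did not pass against the control purification, was higher than the other TAP purifications (1.66, adjusted p = 0.000677), and so were SPT10 (1.02, adjusted p = 0.0458) and CTF13 (0.79, adjusted p = 0.0441). COX23 (0.72, adjusted p = 0.114) and CTR2 (0.33, adjusted p = 0.303) were not, nor was CCW22 (1.76, adjusted p = 0.0590). Of the decreases, PFK1 was lower also here (−1.04, adjusted p = 0.0138), while XRN1 (−0.61, adjusted p = 0.0631) and NAM7 (−0.73, adjusted p = 0.0660) did not pass.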

How the data were processed

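Tagged and control lysates were purified on IgG beads, RNA was depleted of ribosomal RNA with RiboZero or Ribominus (the sources used here do not say which for each library), and stranded libraries were sequenced. Per the labels and methods, the authors trimmed reads with cutadapt 1.16, aligned them with STAR 2.7 (introns of at most 1500 bases) and deposited unscaled whole-number read counts from featureCounts (Subread 1.6.2) for 23521 features of the R64 annotation with added non-coding RNAs. Depth was 4112276 to 13183470 reads in the 6 libraries compared.

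Features with at least 10 reads in at least 3 of 18 libraries were kept (12582). The 18 libraries (6 groups of 3) were fitted together with a quasi-likelihood test (edgeR 4.0.16, TMM scaling, R 4.3.3) and Benjamini-Hochberg adjustment at 0.05. Ratios of intron or UTR reads to exon or ORF reads (0.5 added) were tested with limma 3.58.1, and class shares with an exact two-sided permutation test. The fits were tested on simulated data. Alternatives were other scalings, filters and pseudocounts, DESeq2 1.42.0, limma-voom, a replicate block and left-out libraries. A term for libraries above 1% ribosomal RNA, counted without YLR154W-E, was added after seeing the data. Gene names and sequences came from RefSeq (R64), which matched 5907 of 6578 systematic names.

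The gene lists and tests were chosen with earlier results of these data known. Named were the bait gene, XRN1 and transcripts the study names; the 10 largest increases and 10 largest decreases called among ORFs or exons (at least 20 CPM, no overlap); up to 4 each among non-coding RNAs and introns (5 CPM); all NMD-sensitive mRNAs, NMD factors and histones; from each other list no more than its 4 most abundant members; and up to 4 called ratios in each direction. SUT141 was not among the features kept and is not reported.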

Additional observations from a re-analysis of the deposited data

How the results depend on the processing

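No called value of a count or named feature changed sign in the alternatives run. Against the control purification, 2488 features were higher and 1751 lower, and the counts were 3891 and 69 with total-count scaling, 1626 and 1133 with at least 10 reads in each library compared, and 3369 and 2890 with a replicate block. A term for ribosomal RNA, added after seeing the data, gave 3246 and 2788, DESeq2 gave 2993 and 1680, and limma-voom gave 2486 and 1905. Leaving out replicates gave 68 to 2974 higher and 6 to 2445 lower, both lowest without replicate 2 of every group. Against the other TAP purifications, 2920 were higher and 1785 lower, with 4830 and 107 under total-count scaling, 1839 higher with 10 reads in each library, 2921 lower with the block, 3055 lower with the ribosomal RNA term, and 550 to 3533 higher and 33 to 2455 lower with replicates left out. For the intron to exon ratio, the 43 higher calls stayed within 1.5 times of that number, and the 1 lower call became 2 with a pseudocount of 5, 5 without a filter, 2 with the 6 libraries alone, 3 with the block, 2 with the ribosomal RNA term and 0 to 3 with replicates left out. For the 3′ UTR ratio, 17 higher became 27 with a pseudocount of 1, 68 with the block, 192 with the ribosomal RNA term and 0 to 45 with replicates left out, and 0 lower became 1 with a pseudocount of 1 or 5, 7 without a filter, 1 with the block and 1 with the ribosomal RNA term. For the 5′ UTR ratio, 88 higher became 11 with a pseudocount of 5, 35 without a filter, 155 with the 6 libraries alone, 145 with the block, 194 with the ribosomal RNA term and 0 to 103 with replicates left out, and 5 lower became 17, 8 and 9 without a filter, with the block and with that term, and 0 to 9 with replicates left out. Of the named features called, 41 higher and 45 lower, total-count scaling kept 41 and 11, and leaving out replicate 2 of every group kept 16 and 3. The cause of these changes was not tested. Replicates were made on different dates, and the study speaks of samples of 1 replicated experiment, but whether libraries of 1 number share a date is not stated. The numbers were not taken as pairs: Upf1-TAP and the control purification of 1 number deviated from their group means with correlations of 0.60, −0.31 and 0.43, and Upf1-TAP replicate 2 correlated best with control purification replicate 1 (0.42) and Upf1-TAP replicate 3 with control purification replicate 2 (0.44). Control values of 0 to 5 reads limit what can be said of the largest folds, and 3 libraries a group limit every call.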

Other observations

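Genes that RefSeq annotates as pseudogenes, a group looked up after the values were seen, were mostly on the high side. Of 18, 12 could be tested, and 4 were higher in Upf1-TAP and 0 lower, beside 19.8% higher among all features, with a median log2 fold change of 1.47. As with XUTs, a pseudogene at low counts could enter the test on its reads in Upf1-TAP alone. The share and the median may therefore depend partly on the filter, and no count with a filter on every library compared is given for this group. SDL1, a broken serine dehydratase gene, stood at 26.6, 28.3 and 38.6 CPM in Upf1-TAP, against 4.80, 8.80 and 7.11 CPM in the control purification (log2 fold change 2.17, SE 0.41, edgeR adjusted p = 0.00101). YIR043C and AAD6 were higher by 2.31 and 1.71 on the log2 scale, and CCW22 is described above. AAD6 lost the call without control purification replicate 3 (adjusted p = 0.111). FLO8, a flocculation activator with a stop codon in this strain background, stood at 143, 98.1 and 46.4 CPM in Upf1-TAP, against 54.0, 20.4 and 21.2 CPM in the control purification, which overlap, and did not pass (log2 fold change 1.59, edgeR adjusted p = 0.0598).

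RUF5-1 and RUF5-2, small RNAs of unknown function with identical counts in every library, were at 57.7, 100.5 and 153 CPM in Upf1-TAP, against 3.20, 2.76 and 4.19 CPM in the control purification. The log2 fold change was 4.93 (SE 0.53, edgeR adjusted p = 3.28e-05) over the control purification and 3.22 over the mean of the other TAP purifications. They were picked after their values were seen.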
